A study of Homo sapiens with 4 samples.

Results

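The genes of glutathione synthesis and ferroptosis control described here are GCLC, GCLM, GSS, GSR, GPX4, CHAC1, CTH, CBS, AIFM2 and ACSL4. They were chosen by symbol, with earlier results of these data known, and all 10 were found among the 22494 features of the deposited count and FPKM tables. Their poly(A) RNA was sequenced in 4 libraries from the human endometrial cancer lines RL-95-2 and HEC-1-A, both of them established. Cells of each line were transfected with mimics of tRF-20-S998LO9D, which is a tRNA-derived fragment, or with the negative control for these mimics, and each line gave 1 library per transfection. No other treatment, time point or genotype is given in the labels, so neither the hours after transfection nor the mimic dose is known here. The study asked how gene expression differs between cells with the mimic and cells with its control.

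Glutathione is the main small thiol of cells. Cysteine, taken up as cystine or made from methionine through the transsulfuration enzymes CBS and CTH, is joined to glutamate by glutamate-cysteine ligase, built from the catalytic subunit GCLC and the modifier subunit GCLM, and GSS then adds glycine. GSR returns oxidised glutathione to its reduced form, and CHAC1 breaks glutathione down inside the cell. GPX4 is a selenium-containing peroxidase that spends glutathione to reduce lipid peroxides in membranes, AIFM2 (FSP1) protects membranes through reduced coenzyme Q, and ACSL4 loads polyunsaturated fatty acids into the phospholipids that can be peroxidised. Ferroptosis is the iron-dependent death that follows when such peroxides build up. CHAC1 and CTH are known targets of the stress transcription factor ATF4, and GCLC and GCLM are known targets of NRF2, the product of NFE2L2.

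Promoter windows of 300 bases (250 before to 50 after the RefSeq start, GRCh38.p14) were matched by symbol for 8 of the 10 genes and searched on both strands. The motif TGATGNAA, the core of the composite element bound by ATF4 with C/EBP partners, was found in 1 of the 8 windows, that of CHAC1, and in 3.62% of all 35116 windows. The antioxidant response core TGACNNNGC was found in 3 of the 8, those of GCLM, CBS and AIFM2, and in 13.3% of all windows. In AIFM2 this match overlaps the AP-1 motif TGANTCA, which 7.71% of all windows hold. The CHAC1 and GCLM windows are shown whole because these genes had the lowest ratio in RL-95-2 and the highest ratio in HEC-1-A. The CBS and AIFM2 matches are shown with the bases around them, and capitals mark the match, which lies on the strand opposite to the one printed. A match describes letters only, and neither binding nor use of these sites was measured.
CHAC1, chr15:40953221-40953520, plus strand, match 209 to 202 bases before the start: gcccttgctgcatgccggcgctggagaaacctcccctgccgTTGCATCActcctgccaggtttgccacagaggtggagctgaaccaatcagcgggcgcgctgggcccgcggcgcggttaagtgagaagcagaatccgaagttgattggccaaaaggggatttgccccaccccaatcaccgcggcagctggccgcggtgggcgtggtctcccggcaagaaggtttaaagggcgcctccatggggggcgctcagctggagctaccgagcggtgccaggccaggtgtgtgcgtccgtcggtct
GCLM, chr1:93909381-93909680, minus strand, match 34 to 26 bases before the start: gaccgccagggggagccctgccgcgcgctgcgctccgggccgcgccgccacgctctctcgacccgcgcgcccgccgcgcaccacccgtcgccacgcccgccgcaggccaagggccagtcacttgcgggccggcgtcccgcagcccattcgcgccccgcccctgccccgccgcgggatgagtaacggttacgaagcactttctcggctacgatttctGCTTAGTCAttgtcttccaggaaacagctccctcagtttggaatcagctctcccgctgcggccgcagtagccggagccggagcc
CBS, chr21:43076436-43076476, minus strand, match 83 to 75 bases before the start: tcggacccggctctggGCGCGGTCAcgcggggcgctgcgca
AIFM2, chr10:70132823-70132863, minus strand, match 22 to 14 bases before the start: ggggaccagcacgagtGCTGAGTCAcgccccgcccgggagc

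Total counts ran from 33575882 to 46220053 per library. All 8 epithelial and Müllerian markers reached 1 CPM (the count scaled by TMM to the library size) in at least 1 library, with EPCAM between 139 and 257 CPM and PAX8 between 220 and 353 CPM. Their summed level was 1626 and 1490 CPM in the HEC-1-A libraries and 2321 and 3700 CPM in RL-95-2 (control and mimic). The markers did not move together. In RL-95-2, KRT8 (388 and 1444 CPM), KRT18 (840 and 1067 CPM) and KRT19 (277 and 511 CPM) were higher with the mimic. EPCAM, PAX8 and CLDN4 were lower with the mimic there, and were lower in both RL-95-2 libraries than in both HEC-1-A libraries. Of 5 blood and immune markers, 0 reached 1 CPM in any library. The endothelial gene CDH5, 1 of 3 such markers, was at 0 CPM in both HEC-1-A libraries and at 14.0 and 24.5 CPM in RL-95-2. Among 4 stromal markers, COL1A1 was at 2.96 and 6.39 CPM in HEC-1-A cells and at 78.2 and 56.6 CPM in RL-95-2, and DCN was at 0 counts in all libraries. The part of these 2 marker levels in the differences between the lines was not tested. Differences within a line rest on 1 library against 1 and have no replicate check. Their 95% intervals are exact for the 2 counts and cover counting error only, not the choice of scaling.

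The 2 subunits of glutamate-cysteine ligase were above control in HEC-1-A with the mimic and below control in RL-95-2. GCLM, the modifier subunit on chromosome 1 (93885205 to 93909456, GRCh38), stood at 83.6 CPM (control) and 130 CPM (mimic) in HEC-1-A cells, and at 102 and 65.2 CPM in RL-95-2 cells. The HEC-1-A mimic library was the highest of the 4 and the RL-95-2 mimic library the lowest, and the mimic and control libraries overlapped. Its log2 ratio of mimic over control was 0.63 in HEC-1-A (interval 0.57 to 0.70), or 1.55-fold higher, and -0.65 in RL-95-2 (-0.72 to -0.58), or 1.57-fold lower. GCLC, the catalytic subunit on chromosome 6 (53497341 to 53616970), stood at 99.2 and 107 CPM in the HEC-1-A libraries and at 64.2 and 50.1 CPM in RL-95-2. Both HEC-1-A libraries were above both RL-95-2 libraries, and the ratios were smaller than those of GCLM, at 0.11 (0.05 to 0.17) and -0.36 (-0.44 to -0.28). Per gene length, the GCLC to GCLM ratio of FPKM values was 1.47 and 1.03 in HEC-1-A cells and 0.78 and 0.95 in RL-95-2 (control and mimic). The catalytic subunit was thus ahead in the HEC-1-A control library and behind in the RL-95-2 control library. In the mimic libraries the subunits were nearly equal.

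GSS and GSR had ratios above 0 in RL-95-2, unlike the other 8 genes there, of which ACSL4 had an interval that included 0. GSS, glutathione synthetase on chromosome 20 (34928433 to 34956027), stood at 102 and 99.9 CPM in the HEC-1-A libraries and at 40.1 and 62.5 CPM in RL-95-2 (control and mimic). Its log2 ratio was -0.02 in HEC-1-A (-0.09 to 0.04) and 0.64 in RL-95-2 (0.55 to 0.73), or 1.56-fold higher, which still left the RL-95-2 mimic library below both HEC-1-A libraries. ACSS2, an acetyl-CoA synthetase gene on the other strand that ends 470 bases from GSS, had -0.16 and 0.80. GSR, glutathione reductase, stood at 154 and 167 CPM in HEC-1-A cells and at 131 and 155 CPM in RL-95-2. These 4 levels lay close together, the lines overlapped, and the mimic library was the higher one in both lines (log2 ratios 0.12, 0.07 to 0.17, and 0.24, 0.19 to 0.29). Against GCLC, which makes the precursor that GSS completes, GSS had FPKM ratios of 1.95 and 1.77 in the HEC-1-A libraries and of 1.23 and 2.43 in RL-95-2, so the ratio was higher with the mimic in RL-95-2.

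CHAC1, the glutathione-degrading gamma-glutamylcyclotransferase on chromosome 15 (40952962 to 40956519), had the lowest ratio of the 10 genes. It stood at 30.2 CPM (control) and 44.7 CPM (mimic) in HEC-1-A cells and at 27.3 and 5.96 CPM in RL-95-2, on 1002, 2000, 1064 and 294 counts. The 2 control libraries were alike, and the mimic libraries lay on either side of them. The log2 ratio was 0.56 in HEC-1-A (0.45 to 0.67), or 1.48-fold higher, and -2.18 in RL-95-2 (-2.38 to -2.005), or 4.54-fold lower. Its paralog CHAC2, which does the same reaction at a slow basal rate, did not share this pattern. CHAC2 stood at 7.76 and 7.53 CPM in HEC-1-A cells and at 4.30 and 8.22 CPM in RL-95-2, with log2 ratios of -0.04 (-0.28 to 0.20) and 0.92 (0.67 to 1.20). It lies inside ASB3, which runs on the other strand, and its counts are uncertain because the strand setting of the counting is not known. Per gene length, CHAC1 was 3.46, 5.27 and 5.59 times CHAC2 in the first 3 libraries and 0.64 times CHAC2 in the RL-95-2 mimic library, the one library where CHAC2 was the higher of the pair.

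Both transsulfuration genes were below control in the RL-95-2 mimic library and close to control in HEC-1-A. CTH, cystathionine gamma-lyase on chromosome 1 (70411218 to 70439851), which releases cysteine, stood at 20.6 and 23.1 CPM in the HEC-1-A libraries and at 9.99 and 4.10 CPM in RL-95-2. Both RL-95-2 libraries were below both HEC-1-A libraries. The log2 ratio was 0.16 in HEC-1-A (0.02 to 0.30) and -1.28 in RL-95-2 (-1.54 to -1.04), or 2.42-fold lower, and on log2(FPKM + 1) the RL-95-2 value was -0.86, under 2-fold. CBS, cystathionine beta-synthase on chromosome 21 (43053191 to 43076943), stood at 168 and 173 CPM in HEC-1-A cells and at 167 and 92.0 CPM in RL-95-2. Here 3 libraries were alike and the RL-95-2 mimic library was lower, with log2 ratios of 0.04 (-0.01 to 0.09) and -0.86 (-0.92 to -0.81).

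**Figure D1:**
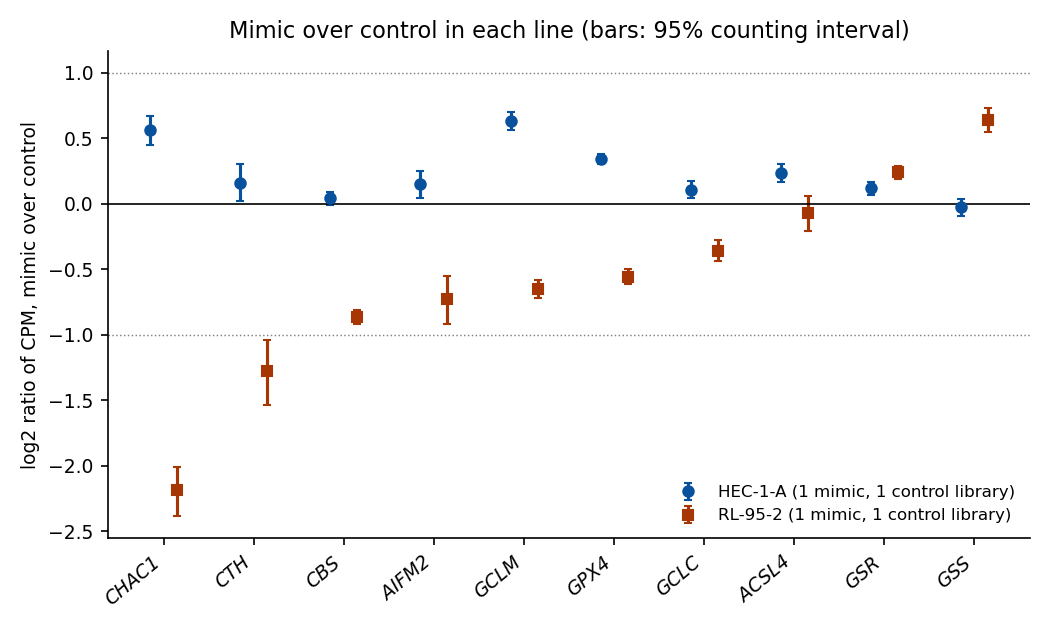
Log2 ratio of TMM-scaled CPM of mimic over control for the 10 genes in HEC-1-A (circles) and RL-95-2 (squares), 1 library against 1 in each line, with exact 95% counting intervals as bars and dotted lines at 2-fold. CHAC1 at -2.18 and CTH at -1.28 in RL-95-2 are the points past 2-fold, and GSS at 0.64 is the highest RL-95-2 point.

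The CBS values are uncertain because GRCh38 holds a second, near-identical copy, CBSL, at 6444869 to 6468040 on the same chromosome, and the deposited table splits reads between the 2. CBSL took 39.97% of the summed counts in the HEC-1-A control library (exact binomial 95% interval 39.0 to 41.0), 34.1% in the HEC-1-A mimic library (33.2 to 34.96), 36.5% in the RL-95-2 control library (35.6 to 37.4) and 28.3% in the RL-95-2 mimic library (27.2 to 29.4). The CBSL share was thus lower with the mimic in both lines, by more than counting error. U2AF1 and U2AF1L5, a splicing factor gene and its copy in the same duplicated segment, were split in shares that ranged more widely, the copy taking 44.8% and 55.2% in the HEC-1-A libraries and 65.6% and 50.7% in those of RL-95-2. With CBS and CBSL counts added together, the level was 279 and 262 CPM in HEC-1-A cells and 264 and 128 CPM in RL-95-2. The summed log2 ratio was -0.09 in HEC-1-A (-0.13 to -0.05), on the other side of 0 from CBS alone, and -1.04 in RL-95-2 (-1.09 to -0.99), just past 2-fold.

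**Figure D2:**
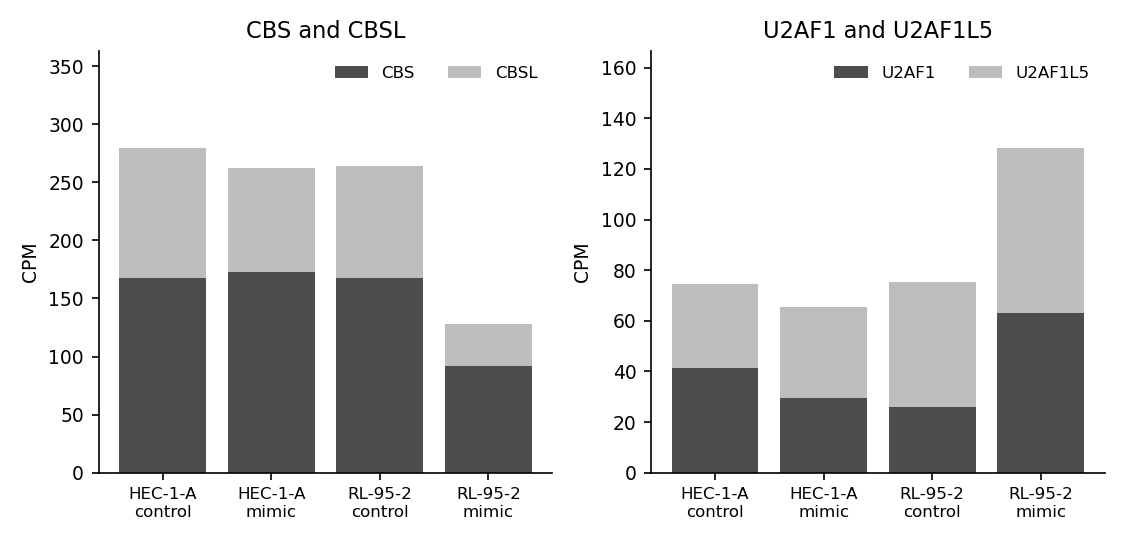
Stacked TMM-scaled CPM of CBS and CBSL (left) and of U2AF1 and U2AF1L5 (right) in the 4 libraries, with 1 bar per library and the copy in light grey. The CBS and CBSL sum is 128 CPM in the RL-95-2 mimic library and between 262 and 279 CPM in the others, and the share of the copy differs between libraries for both pairs.

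Of the genes that act on membrane lipid peroxides, GPX4 and AIFM2 were above control in HEC-1-A and below control in RL-95-2. ACSL4 was above control in HEC-1-A too, and its counting interval in RL-95-2 included 0. GPX4, on chromosome 19 (1103926 to 1106791), stood at 242 and 307 CPM in the HEC-1-A libraries and at 146 and 99.5 CPM in RL-95-2 (control and mimic). The HEC-1-A libraries were both above the RL-95-2 libraries, and the log2 ratios were 0.34 (0.30 to 0.38) and -0.55 (-0.61 to -0.50). SBNO2, which runs on the other strand and ends 844 bases from GPX4, had ratios of 0.37 and -0.66. AIFM2, on chromosome 10 (70098223 to 70132934), stood at 37.8 and 42.0 CPM in HEC-1-A cells and at 14.2 and 8.56 CPM in RL-95-2, with ratios of 0.15 (0.05 to 0.25) and -0.73 (-0.92 to -0.55). It overlaps H2AFY2, a histone variant gene on the other strand, over 14058 bases. H2AFY2 had 3 and 0 counts in the HEC-1-A libraries and 3752 and 3630 counts in RL-95-2, so it was high in the line where AIFM2 was low. Reads of the 2 genes cannot be told apart where they overlap if counting ignored strand. ACSL4, on the X chromosome (109624244 to 109733403), stood at 85.9 and 101 CPM in HEC-1-A cells and at 21.8 and 20.7 CPM in RL-95-2. Both HEC-1-A libraries were far above both RL-95-2 libraries. Its ratios were 0.24 (0.17 to 0.30) and -0.07 (-0.21 to 0.06), the second of which became 0.06 when libraries were scaled by their totals, or 0.01 as log2(FPKM + 1). The FPKM ratio of ACSL4 to its paralog ACSL3, which prefers monounsaturated fatty acids, was 0.75 and 0.76 in the HEC-1-A libraries and 0.12 and 0.13 in RL-95-2.

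Counted together, 0 of the 10 genes reached a 2-fold higher level with the mimic in HEC-1-A and 0 a 2-fold lower one, where 0.871% and 0.239% of the 12981 genes averaging 1 CPM or more did. In RL-95-2, 0 reached 2-fold higher and 2 reached 2-fold lower, where 4.71% and 6.52% of 13151 genes did (619 and 857 genes, or 875 and 685 with scaling by library total). In bulk RNA, fewer cells with a transcript and less of it per cell cannot be told apart. The median log2 ratio of the 10 genes was 0.16 in HEC-1-A, with 9 above 0, and -0.60 in RL-95-2, with 8 below 0. Among the 8, ACSL4 had an interval that included 0. Over all genes the medians were 0.02 and 0.00, with 53.6% and 50.1% above 0. Scaling by TMM places most genes near 0, and with scaling by library total the RL-95-2 median of all genes was 0.13. GCLC, GCLM, GPX4, CHAC1, CTH and AIFM2 lay above 0 in HEC-1-A and below 0 in RL-95-2 with both intervals clear of 0. Such opposite ratios, in either order, were found for 6 of the 10 genes and for 26.9% of 11913 genes with at least 1 CPM in both lines. Counting intervals are narrower for genes with more counts, and these shares were not matched for level. Nor were the members chosen without knowledge of these data. Whether the lines responded differently could not be tested, since 1 library per line and transfection leaves no residual spread for that term.

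Over both lines, none of the 10 genes passed the edgeR quasi-likelihood test of mimic against control with the line as a block (0 of 10 at a false discovery rate of 0.05, and 0 at an unadjusted p under 0.05). The same test called 0% of 15957 genes, with 167 at an unadjusted p under 0.05. All 10 genes had passed the filter on low counts. CHAC1 had a log2 fold change of -0.80 (SE 0.65, n = 2 per transfection, edgeR adjusted p = 0.9999), and 1 of the 2 lines had a ratio below 0. GSR, with ratios above 0 in both lines, had 0.18 (SE 0.23, edgeR adjusted p = 0.9999), and the other 8 lay between -0.55 for CTH and 0.31 for GSS. DESeq2 and limma-voom also called 0 of the 10. The fit left 1 residual degree of freedom, which holds the difference between the lines in their mimic ratios. Opposite ratios in the lines therefore widen the error of this test.

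Between the lines, calls were made for several members. The 2 libraries of a line are 1 control and 1 mimic library, not repeats of a condition. GCLC, GSS, GPX4, CTH, AIFM2 and ACSL4 were lower in RL-95-2 than in HEC-1-A by the edgeR test with transfection in the model, 6 of the 10 genes against 16.7% of all 15957 genes. None was higher, against 18.3% of all genes. Since the members were chosen with earlier results of these data known, these shares are a description only. ACSL4 fell by 2.13 on the log2 scale from HEC-1-A to RL-95-2 (SE 0.24, n = 2 per line, edgeR adjusted p = 0.0011), or 4.39-fold. AIFM2 fell by 1.85 (SE 0.31, edgeR adjusted p = 0.0055), or 3.61-fold, and CTH by 1.77 (SE 0.42, edgeR adjusted p = 0.020), or 3.40-fold. GPX4 fell by 1.18 (SE 0.30, edgeR adjusted p = 0.026), GSS by 1.01 (SE 0.26, edgeR adjusted p = 0.026) and GCLC by 0.86 (SE 0.24, edgeR adjusted p = 0.034). The values that did not pass were -1.51 for CHAC1 (SE 0.65, edgeR adjusted p = 0.12), -0.46 for CBS (SE 0.30, edgeR adjusted p = 0.27), -0.35 for GCLM (SE 0.34, edgeR adjusted p = 0.47) and -0.17 for GSR (SE 0.23, edgeR adjusted p = 0.62).

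The size of several of these differences was not the same in the 2 transfections. Between the control libraries alone, the log2 ratio of RL-95-2 over HEC-1-A was -0.15 for CHAC1, -1.04 for CTH, -0.73 for GPX4, -1.41 for AIFM2 and -1.34 for GSS. Between the mimic libraries alone it was -2.90, -2.48, -1.63, -2.29 and -0.67. The gap between the lines was thus wider in the mimic pair for the first 4 of these genes and narrower for GSS. GCLM had 0.29 between controls and -0.99 between mimics, and CBS had -0.002 and -0.91. ACSL4 had nearly the same gap in both, at -1.98 and -2.29. Since each pair is 1 library against 1, these values carry no test. The change in gap between the transfections restates the within-line ratios of the same libraries and is not a separate observation.

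**Figure D3:**
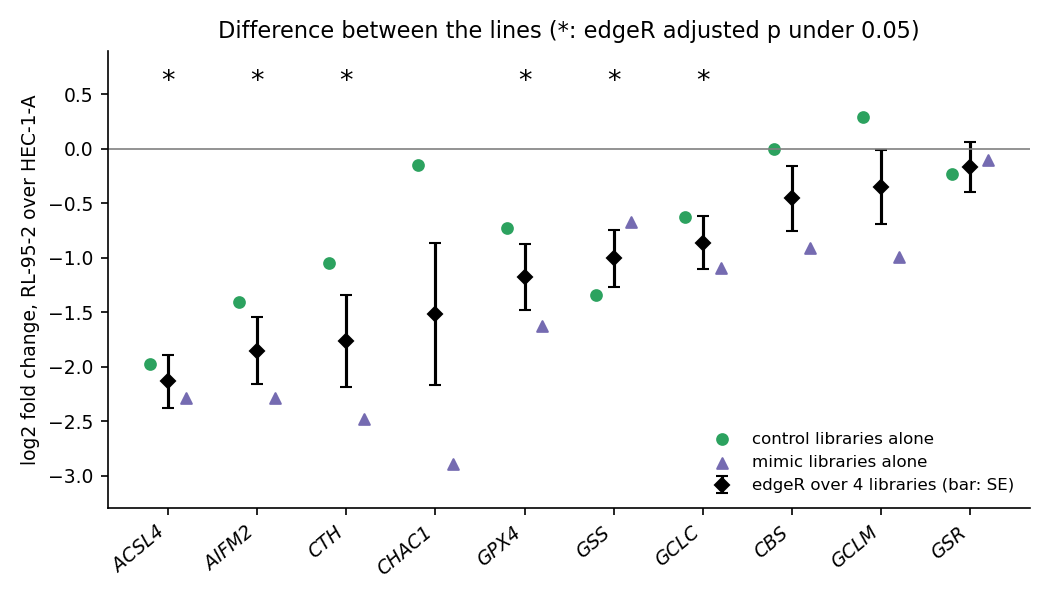
Log2 fold change of RL-95-2 over HEC-1-A for the 10 genes by edgeR over all 4 libraries (diamonds, bars are SE, n = 2 per line), beside the ratio of the control libraries alone (circles) and of the mimic libraries alone (triangles), with stars for an adjusted p under 0.05. The diamonds run from -2.13 for ACSL4 to -0.17 for GSR, and the 2 pairs lie farthest apart for CHAC1, at -0.15 and -2.90.

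Per gene length, GPX4 was the most abundant of the 10 transcripts in every library, with 219.75 FPKM ± 99.1 (SD over the 4 libraries), and its lowest library, at 119 FPKM, was above the highest library of any other member. CBS followed with 54.1 ± 11.9, GSR with 43.4 ± 4.90 and GSS with 35.1 ± 13.4 FPKM, the CBS value without the reads given to CBSL. Next came GCLC (19.2 ± 6.39), GCLM (18.3 ± 4.81) and CHAC1 (15.8 ± 9.12), and then ACSL4 (10.1 ± 7.14), AIFM2 (7.03 ± 4.39) and CTH (6.76 ± 4.14 FPKM). Below GPX4, the ranges of neighbours in this order overlapped at each step. GSR varied least for its level and CHAC1, ACSL4, AIFM2 and CTH most. Within HEC-1-A the 2 libraries separated GPX4, CBS, the pair GSS and GSR, and the pair AIFM2 and CTH from their neighbours. GPX4 was 25.9 and 29.7 times AIFM2 in HEC-1-A cells and 40.5 and 44.9 times AIFM2 in RL-95-2.

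**Figure D4:**
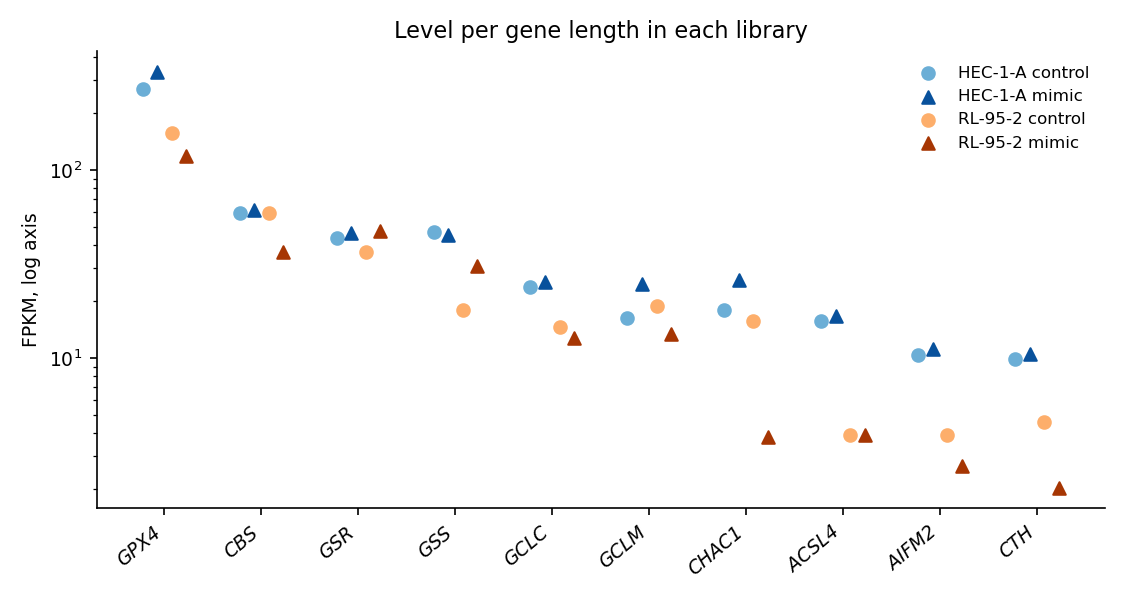
FPKM of the 10 genes in each of the 4 libraries on a log axis, ordered by their mean, with circles for control and triangles for mimic libraries. GPX4 lies between 119 and 334 FPKM, above all others, and ACSL4, AIFM2 and CTH sit lower in both RL-95-2 libraries than in both HEC-1-A libraries.

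Other genes of the pathway were read from lists of known functions, where 0 members passed the edgeR test of mimic against control over both lines. Of 12 genes of cysteine supply and the methionine cycle, 10 were measured in RL-95-2. With the mimic, 4 were at least 2-fold lower there and 1 higher, beside 6.52% and 4.71% of all genes. Both parts of the cystine transporter were lower in the mimic library there, the light chain SLC7A11 (476 CPM in the control and 110 CPM in the mimic library, log2 ratio -2.12) and the heavy chain SLC3A2 (1145 and 504 CPM, -1.18). The neutral amino acid carriers SLC1A5 and SLC1A4 had -1.43 and -1.15. MAT2A, which makes S-adenosylmethionine from methionine at the head of the transsulfuration route, had 1.15 (158 and 349 CPM), the single gene of the 10 above 0 in RL-95-2. The median was -0.16, and in HEC-1-A it was -0.04 with 0 of 10 at least 2-fold apart and SLC7A11 at 0.26.

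Genes that use, export or turn over glutathione went both ways in RL-95-2, with 12 above and 10 below 0, and were mostly above 0 in HEC-1-A, with 19 above and 4 below. Of 28 genes in the list, 23 were measured in HEC-1-A with a median log2 ratio of 0.09, and 22 in RL-95-2 with 0.09. Among these, 1 gene in each line was at least 2-fold apart. The RL-95-2 ratios of the measured genes ran from -0.71 for the glutathione exporter ABCC1 to 1.01 for GSTA4. GLRX, a glutaredoxin, had 30 and 100 counts in HEC-1-A (log2 ratio 1.26). In RL-95-2, where its mean of 0.97 CPM was under the minimum of 1 CPM, it had 12 and 80 counts (2.23, interval 1.52 to 3.41). GSTA4, a glutathione transferase, had 27 and 71 counts in RL-95-2 (1.01). Between the lines, 3 of 24 tested genes were higher in RL-95-2 and 5 lower by edgeR, beside 18.3% and 16.7% of all genes. The cytosolic peroxidase gene GPX1 was among the former (log2 fold change 2.29, edgeR adjusted p = 0.0015), at 95.1 and 104 CPM in the HEC-1-A libraries and 549 and 431 CPM in RL-95-2. The FPKM ratio of GPX4 to GPX1 was accordingly 2.90 and 3.38 in HEC-1-A cells and 0.30 and 0.26 in RL-95-2.

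Among 20 genes of ferroptosis defence outside GPX4, 19 were measured in each line, with medians of 0.06 for HEC-1-A and 0.03 in RL-95-2. In RL-95-2, 3 were at least 2-fold lower and 0 higher, beside 6.52% and 4.71% of all genes. The 3 were TXNRD1, the selenoprotein thioredoxin reductase (log2 ratio -2.07), NFE2L2 (-1.11) and SCD, the desaturase that makes monounsaturated fatty acids (104 and 51.9 CPM, -1.01). Between the lines, 3 of the 19 were higher and 4 lower in RL-95-2 by edgeR, again beside 18.3% and 16.7% of all genes. GCH1, which starts tetrahydrobiopterin synthesis, was higher there (log2 fold change 1.45, edgeR adjusted p = 0.017), and SCD lower (-1.84, edgeR adjusted p = 0.0080).

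Among 21 genes of ferroptosis promotion and membrane lipid oxidation, 18 were measured in HEC-1-A (median 0.05) and 17 in RL-95-2 (median 0.09). In RL-95-2, 2 were at least 2-fold higher and 2 lower, beside 4.71% and 6.52% of all genes, and in HEC-1-A 0 were. LPCAT3, which inserts polyunsaturated chains made available by ACSL4 into phospholipids, had 0.69 in HEC-1-A (11.1 and 17.9 CPM) and 1.01 in RL-95-2 (7.92 and 16.04 CPM), and PEBP1, a lipoxygenase partner, had 0.01 and 1.18. SAT1, which acetylates polyamines, had 0.48 and -2.60 (1109 and 182 CPM in RL-95-2), and the lipoxygenase gene ALOXE3 0.73 and -1.26. FADS1, a desaturase of polyunsaturated fatty acids, was lower in RL-95-2 by edgeR (log2 fold change -7.21, edgeR adjusted p = 9.9e-05), with 3858 and 5294 counts in HEC-1-A against 18 and 59 in RL-95-2. Of the 20 genes tested, 4 were higher and 4 lower in RL-95-2, beside the same 18.3% and 16.7%.

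Of 12 regulators known to act on the members, 7 reached a 2-fold lower level with the mimic in RL-95-2 and 0 a 2-fold higher one. Over all genes 6.52% and 4.71% did. The median log2 ratio of the regulators was -1.11. In HEC-1-A 0 were at least 2-fold apart and the median was 0.08. ATF4 itself had -0.04 in HEC-1-A cells and -0.79 in RL-95-2 (440 and 254 CPM). Its partners and targets DDIT3, ATF3 and TRIB3 had -3.10, -4.95 and -2.28 in RL-95-2, next to 0.25, 0.61 and 0.08 in HEC-1-A. NFE2L2 and the related factor NFE2L1 had -1.11 and -1.16, and their small MAF partners MAFG and MAFF -1.10 and -2.21. KEAP1, the NRF2 inhibitor, had 0.49. NFE2L2 and KEAP1 are also in the lists of ferroptosis defence and promotion. Between the lines, BACH1, the repressor at antioxidant response elements, was the 1 of 12 that passed, lower in RL-95-2 (log2 fold change -1.26, edgeR adjusted p = 0.0080). Of all genes, 16.7% were lower there and 18.3% higher.

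**Figure D5:**
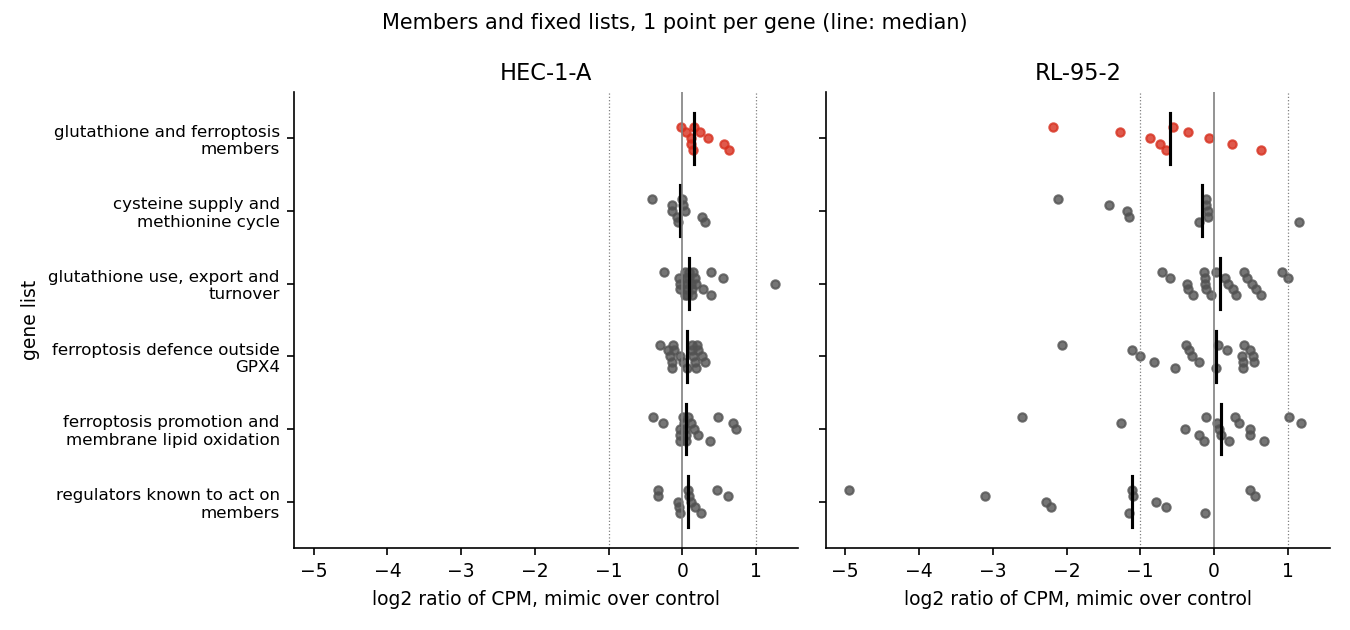
Log2 ratio of TMM-scaled CPM of mimic over control for the 10 genes (red) and for the measured genes of 5 lists (grey) in HEC-1-A and RL-95-2, with 1 point per gene, a black line at each median and dotted lines at 2-fold. In RL-95-2 the 10 genes have a median of -0.60 and the regulators one of -1.11, while the other 4 medians lie between -0.16 and 0.09.

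The 2 members at least 2-fold apart were set beside all features with a symbol and a mean of at least 5 CPM, by the distance between log2 CPM values centred over the 4 libraries. Nearest to CHAC1 was MAFF, 1 of the small MAF genes above (distance 0.26), with 76.3 and 106 CPM in the HEC-1-A libraries and 80.2 and 17.3 CPM in RL-95-2. It was followed by ARG2, the mitochondrial arginase (0.39), and PNRC1, a nuclear receptor coactivator gene (0.43). Nearest to CTH were DOPEY2 (0.09), MOAP1 (0.10) and PRKAA2, a catalytic subunit of AMP-activated kinase (0.12). Likeness over 4 libraries is a description only.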

How the data were processed

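Poly(A) RNA was sequenced as paired reads on a DNBSEQ-T7 instrument, per the labels' protocols. Raw gene counts and FPKM values of the same 4 libraries were deposited by the authors. HISAT2, CASAVA and the GRCh38 (hg38) build are named per the submitters' processing notes, while counter, annotation and strand handling were not given in the sources used here. Of the features, 2765 carry a name of the form MSTRG and a number and 27 a date in place of a symbol. They stayed in the fits and were not named. The labels do not say whether libraries came from separate cultures, so each p-value covers the spread between these libraries, which may be technical.

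Counts were scaled by TMM, filtered by transfection and tested with edgeR 4.0.16 (R 4.3.3; quasi-likelihood F test, cell line and transfection in the model, Benjamini-Hochberg adjustment over all 15957 genes, FDR 0.05). The line named in the labels pairs mimic and control, and 1 residual degree of freedom was left. Each SE given with an edgeR value was derived from the test. It is the absolute log2 fold change divided by the square root of the F statistic. Within a line, log2 ratios of CPM (prior count of 2) were called at 2-fold for genes averaging 1 CPM or more. Alternatives used DESeq2 1.42.0, limma 3.58.1, other scalings, filters, prior counts and FPKM. The fit was tested on simulated data with the same change planted in both lines, so opposite changes in the lines were not covered. Positions are from GENCODE release 29 (GRCh38) and promoter windows from RefSeq (GRCh38.p14). Genes named from the lists were those at least 2-fold apart in a line, else the 2 highest and 2 lowest ratios in RL-95-2, and those named for the difference between lines (GPX1, GCH1, FADS1, SCD, BACH1), the paralogs CHAC2 and ACSL3, ABCC1, ATF4, KEAP1, and the markers named were chosen after their values were seen. The members and lists were chosen with earlier results of these data known.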

Additional observations from a re-analysis of the deposited data

Results flagged for a closer look

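GCLC, GCLM, GPX4, CHAC1, CTH and AIFM2 had log2 ratios of mimic over control above 0 in HEC-1-A and below 0 in RL-95-2, with the counting interval clear of 0 in both lines. The ratio in RL-95-2 minus that in HEC-1-A was -2.75 for CHAC1, -1.44 for CTH, -1.28 for GCLM, -0.90 for GPX4, -0.88 for AIFM2 and -0.47 for GCLC. These differences were not tested, because 1 library per line and transfection leaves no replicate for them.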

How the results depend on the processing

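The 6 genes called lower in RL-95-2 than in HEC-1-A were called lower under each scaling, filter, tool and FPKM setting run and without the transfection term, and 0 members were called higher. On log2(FPKM + 0.1) limma also called CHAC1 (log2 fold change -1.46, adjusted p = 0.027), which made 7. With at least 1 CPM in all 4 libraries, 1662 genes were called higher and 1651 lower in RL-95-2, in place of 2923 and 2671; fewer genes were tested. Without the mimic or without the control replicate, the GCLM difference between lines ranged from -0.99 to 0.29. For mimic against control over both lines, DESeq2 called 1 gene higher and 1 lower and limma on log2(FPKM + 0.1) 2 and 1, and 0 members in either; the cause was not tested. The fitted GCLM change of -0.01 was 0.046 with scaling by library total, 0.055 on log2(FPKM + 1), 0.055 on log2(FPKM + 0.1) and 0.068 with no replicate block. With no replicate block, GPX4 was at 0.066 in place of -0.11, and no gene was called. Leaving out 1 line, the log2 change ranged from -0.072 to 0.24 for ACSL4, -0.36 to 0.11 for GCLC, -0.65 to 0.63 for GCLM, -0.024 to 0.64 for GSS, -0.55 to 0.34 for GPX4, -2.18 to 0.56 for CHAC1, -1.28 to 0.16 for CTH, -0.86 to 0.044 for CBS and -0.73 to 0.15 for AIFM2. Within HEC-1-A, genes at least 2-fold higher and lower numbered 113 and 31, and 13 and 13 on log2(FPKM + 1) or 18 and 11 at a mean of at least 5 CPM. Within RL-95-2 they numbered 619 and 857, and 352 and 375 on log2(FPKM + 1), with 1 member lower in place of 2; at a mean of at least 5 CPM, 336 were higher. A pseudocount pulls low genes toward 0, and a higher minimum tests fewer genes. Scaling by library total gave 875 higher and 685 lower in RL-95-2 and moved the median of all genes from 0.00 to 0.13. Under it the RL-95-2 ratios were -0.23 for GCLC, -0.52 for GCLM, -0.43 for GPX4, -0.74 for CBS, 0.77 for GSS and 0.37 for GSR. These lay outside the counting intervals of the main ratios, while those of CHAC1, CTH, AIFM2 and ACSL4 lay inside. On log2(FPKM + 1), CHAC1 had -1.80 and AIFM2 -0.42 in RL-95-2, also outside. CBS and CBSL added together gave 3 members at least 2-fold lower in RL-95-2. CTH in RL-95-2 rests on 390 and 202 counts.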
